A study of Mus musculus with 12 samples.

Results

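Cytokines of the common gamma chain family are read by receptors that are assembled from a small set of chains, and 7 genes of that set (Il2rg, Il2rb, Il15ra, Il7r, Il4ra, Il21r and Il9r) were followed here in mouse CD4+ T cells. They were taken as the chains that carry the family's receptors, with earlier results of these data known. They were looked up by gene identifier among the 17523 genes of the table. All 7 were found and had enough reads to be tested. The RNA came from splenic CD4+ T cells of Gr/fr mice on the C57BL/6 strain. Both alleles of this line are present in every group. The Gr allele makes GM-CSF from Csf2 together with iCre and BFP, and a Rosa26 eYFP cassette is switched on for good once iCre has been made, so that YFP+ cells express or once expressed GM-CSF while YFP- cells carry no such record. Naïve cells (CD44-) and effector memory cells (TEM, CD44hi), told apart in the gates by CD44 among other markers, were each divided into YFP- and YFP+ fractions, which gave naïve YFP-, naïve YFP+, TEM YFP- and TEM YFP+ groups of 3 libraries each. The mice had not been immunized, and the study's methods give 2 to 3 months as the age of its mice for sorting. Reporting rests on the activity of the Csf2 allele itself, the gates used neither CD25 nor Foxp3, and the sorts used 3 mice, as many as there are libraries in a group, with no label that ties a library to a mouse.

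In a resting lymphocyte the common gamma chain, made from Il2rg, sits idle until a cytokine brings it together with a private partner chain. The pair then activates JAK1 and JAK3, which phosphorylate STAT proteins, mainly STAT5 for IL-2, IL-7, IL-9 and IL-15, STAT6 for IL-4 and STAT3 for IL-21. Through these receptors naïve T cells are kept alive by IL-7, memory T cells are kept alive and cycling by IL-7 and IL-15, and helper cells are steered by IL-4, IL-9 and IL-21.

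Each library held 40974124 to 57822269 reads on genes, so that even the scarcest receptor gene was counted (Il9r, 18 reads in the library with the fewest). Values are normalized counts, that is, reads divided by the size factor of the library. The T cell markers (8 genes, Cd3 chains, Cd4 and others) summed to 187479 to 268073 normalized counts in every library. Cd44 was at 2334 to 3372 in naïve and 21778 to 29383 in TEM libraries, as the gates require. Conventional dendritic cell markers (6 genes) summed to at most 350.2 in naïve libraries, 9205 to 19012 in TEM YFP- and 502.2 to 1129 in TEM YFP+ libraries. Replicate 2 of naïve YFP+ stood apart from the other naïve libraries in macrophage and neutrophil markers (6 genes, 3222 against at most 562.3). In sorted bulk populations such as these, fewer cells that express a gene and less RNA per cell cannot be told apart.

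The receptor genes lie on 5 chromosomes, given here on GRCm38.p6 from RefSeq. Il2rb spans chr15:78479256-78511621 and Il7r chr15:9506159-9529941. Il4ra at chr7:125552271-125579474 and Il21r at chr7:125603252-125634397 are direct neighbours among coding genes, 23777 bp apart. Il15ra at chr2:11705172-11733985 is the direct neighbour of Il2ra, the gene of the IL-2 receptor alpha chain, across 11977 bp. Il2rg is at chrX:101264385-101268255 and Il9r at chr11:32187544-32205283. Il9r overlaps the predicted gene Gm12109 and lies 131 bp from Snrnp25, so that some of its reads could belong to them if the counting did not use strand, which is not given in the sources used here.

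RefSeq promoter sequences (GRCm38.p6) were at hand for 6 of the 7 genes, not for Il2rb. In the 250 bases before each start, 5 short motifs of factors known from lymphocytes were searched on both strands, namely TTCNNNGAA (STAT), TGTTTAC (FOXO), CCGGAAG (ETS), TGTGGTT (RUNX) and GGGCGGGG (GC box). Each match is shown on the strand of its gene with the motif in capitals, so that the receptor genes described below can be set beside the STAT, FOXO, ETS and RUNX genes measured in the same libraries.
Il7r, STAT, chr15:9529999-9530028, minus strand: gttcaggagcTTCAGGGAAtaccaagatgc
Il2rg, ETS, chrX:101268256-101268285, minus strand: aaggttctttccaCCGGAAGctacgacaaa
Il15ra, ETS, chr2:11705178-11705207, plus strand: gaaaggtacagCCGGAAGaaggcaaagtgt
Il4ra, GC box, chr7:125552184-125552213, plus strand: agctgggtgagGGGCGGGGcatgtaaatga
Il21r, FOXO, chr7:125603380-125603409, plus strand: gggcggggcacTGTTTACcacatcccctcc
Il21r, GC box, chr7:125603369-125603398, plus strand: ctggctgggttGGGCGGGGcactgtttacc
Il9r, RUNX, chr11:32200344-32200373, minus strand: ctgtgatgtctTGTGGTTtttgatgtgggt
The Il21r windows overlap, and its GC box lies next to its FOXO letters. Several of these starts are inner starts, so that a window can fall inside the span of its gene. Among 32851 promoters of the same length, 7.02% hold the STAT letters, 3.17% the FOXO, 6.91% the ETS, 4.40% the RUNX and 16.1% the GC box letters. A match describes the letters and nothing about binding.

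The first question was whether TEM cells with a GM-CSF history differ in these receptors from TEM cells without one. Il2rb and Il7r rose in TEM YFP+ cells, to 1.95 and 1.79 times the level in TEM YFP- cells, and none of the 7 fell. Of all genes tested, 6.97% were called in this comparison, 2.3% higher and 4.67% lower. Once a log2 change of at least 1 in size was required, none of the 7 was called, with 1.3% of all genes higher and 3.5% lower. Il2rg, Il4ra, Il15ra, Il21r and Il9r did not pass the test. The calls came from limma on log2(normalized count + 1) over 15587 genes, with p values adjusted by Benjamini-Hochberg and a limit of 0.05, and with all 12 libraries in the fit. Fold changes are on that scale.

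Il2rb encodes the beta chain that IL-2 and IL-15 share and that carries the STAT5 signal of both. Its normalized counts were 37292, 34249 and 28515 in TEM YFP- cells and 84391, 53436 and 59662 in TEM YFP+ cells. The groups did not overlap, and the highest value was that of replicate 1 of TEM YFP+. The log2 fold change was 0.96 (SE 0.16, n = 3 per group, limma adjusted p = 0.00268), and it lay between 0.77 and 1.10 when any 1 library was left out, with every adjusted p at 0.0194 or below.

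Il7r encodes the IL-7 receptor alpha chain, which also forms the receptor for TSLP. It was at 42834, 36099 and 36195 normalized counts in TEM YFP- and at 77244, 56981 and 72884 in TEM YFP+ cells. Here too the groups were separate. Replicate 2 was lowest in both fractions, and its ratio was also the smallest of the 3 pairs. Pairs here and below are libraries with the same replicate number, which no label ties to a mouse. The log2 fold change was 0.84 (SE 0.13, limma adjusted p = 0.00171), between 0.75 and 0.97 without any 1 library, and the adjusted p stayed at 0.015 or below.

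**Figure D1:**
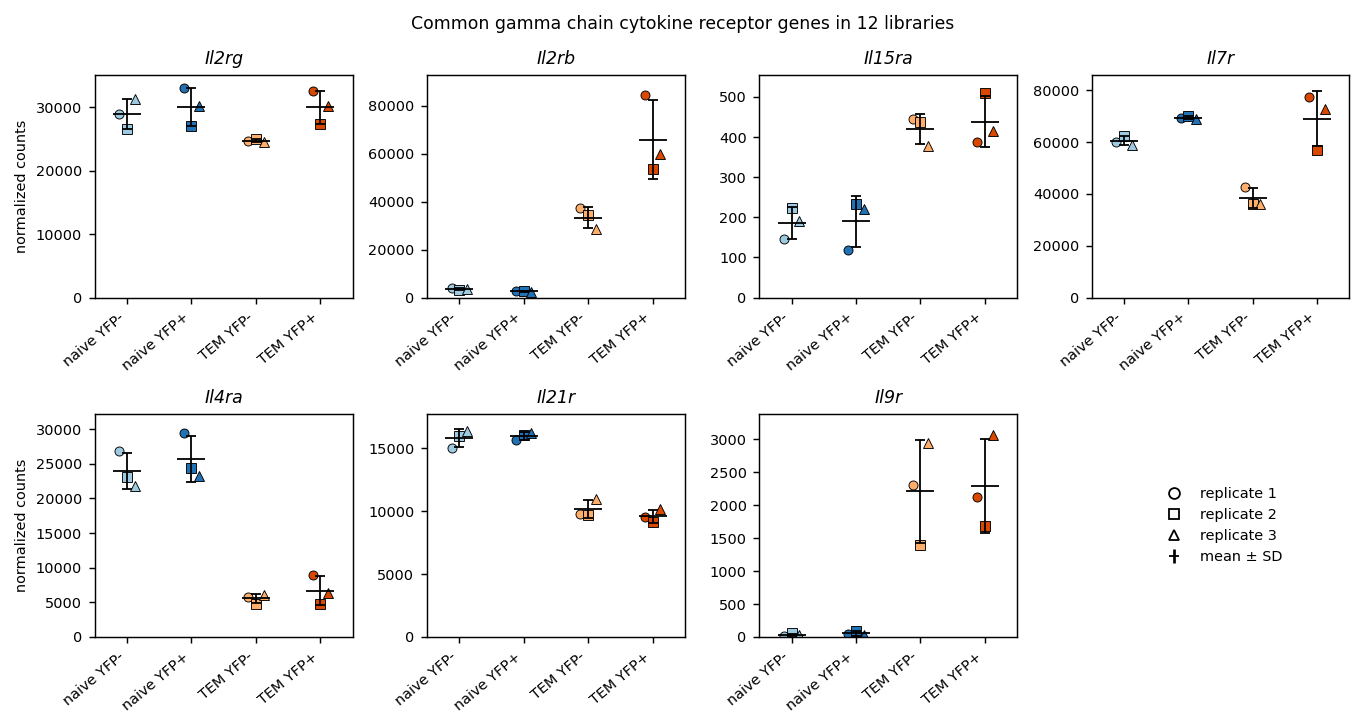
Normalized counts (vertical axes, linear and starting at 0) of the 7 receptor genes in naïve YFP-, naïve YFP+, TEM YFP- and TEM YFP+ libraries; symbols mark replicates 1 to 3, and the bar with whiskers is the mean ± SD of 3 libraries. Il2rb and Il7r in TEM YFP+ lie wholly above TEM YFP-, Il2rb, Il9r and Il15ra are higher in TEM than in naïve cells, and Il4ra and Il21r are lower.

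Il2rg encodes the chain on which every receptor of the family depends. TEM YFP- cells had 24707, 25024 and 24472 normalized counts and TEM YFP+ cells 32488, 27269 and 30161, without overlap, as in 24.97% of all genes tested in this comparison counting both directions. The log2 fold change was 0.27 (SE 0.10, limma adjusted p = 0.176) and thus not called. With the replicate number as a block it did pass, at an unchanged 0.27 and an adjusted p of 0.0379, so that 3 members were then called. That block raised the number called among all genes tested as well, with counts in the closing section.

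The chains private to IL-4, IL-21, IL-9 and IL-15 overlapped between TEM YFP- and TEM YFP+ cells. Il4ra, whose product also joins the IL-13 receptor, was at 5776, 4811 and 6095 in TEM YFP- and 8912, 4688 and 6411 in TEM YFP+ cells. Replicates 1 and 3 of TEM YFP+ lay above the range of TEM YFP-, and replicate 2 lay below it. The log2 fold change of Il4ra was 0.22 (SE 0.19, limma adjusted p = 0.69) and became -0.01 without replicate 1 of TEM YFP+. Il21r differed by -0.08 (SE 0.08, adjusted p = 0.739), Il9r by 0.07 (SE 0.45, adjusted p = 0.978) and Il15ra by 0.05 (SE 0.25, adjusted p = 0.97). The large SE of Il9r leaves room for a sizeable difference in either direction, whereas that of Il21r is narrow. Over the 7 genes the median log2 fold change was 0.22, beside -0.01 over all genes tested.

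Markers of other cells moved along with this comparison, in which 2.3% of all genes tested were called higher and 4.67% lower. Of 8 NK and NKT cell markers, a list that shares Eomes with the regulators named below, 6 were called higher in TEM YFP+, and the list summed to 1104 to 1280 in TEM YFP- and 4278 to 7040 in TEM YFP+ cells, with Ncr1 at 0 in all TEM YFP- libraries. Of 7 regulatory T cell markers, Foxp3 and Ikzf4 were called lower, and the list summed to 68808 to 87384 and 48437 to 61681. Of the dendritic cell markers 5 of 6 conventional ones (sums given above) and 6 of 7 plasmacytoid ones (6464 to 11838 against 3155 to 5718) were called lower. The plasmacytoid sums include Ccr9, which went the other way, at means of 974.6 in TEM YFP- and 2442 in TEM YFP+ cells. Limma called Ccr9 higher with the replicate block and not without it. The median log2 fold change of the plasmacytoid list was -5.45. The macrophage and neutrophil list had 1 of 6 called lower, Adgre1 (sums 4614 to 8778 against 1633 to 3330), and did not move as a whole. Lyz2 and Adgre1 lay wholly below in TEM YFP+ and Csf1r overlapped. Cd14, S100a8 and S100a9 lay wholly above without a call, S100a8 with at most 2 reads in TEM YFP- libraries. Groups without overlap were 24.97% of all genes tested, both directions together. Both CD8 T cell genes were called lower (685.5 to 1490 against 187.4 to 373.1). The B cell list had Cd79a called higher at overlapping sums (28482 to 34332 against 21897 to 28829). The gamma delta list, with 2 of 4 genes in the table and Sox13 at 0 in TEM YFP-, had none called (214.1 to 357.5 against 201.5 to 258.9). The part of these cells in the differences of Il2rb and Il7r was not tested.

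**Figure D2:**
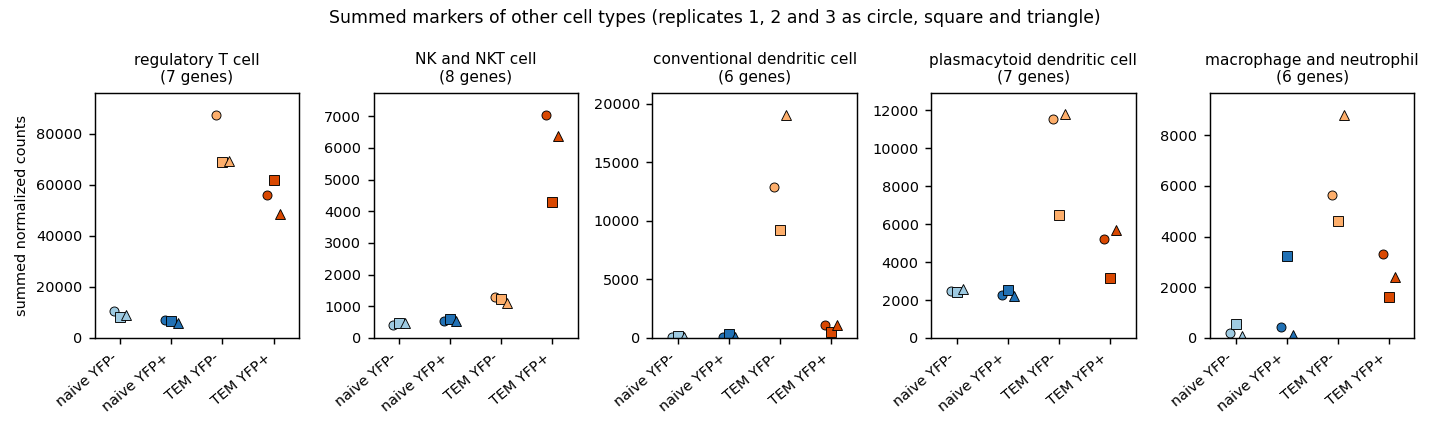
Summed normalized counts (vertical axes, linear and starting at 0) of 5 lists of markers of other cell types in the 4 groups, 1 symbol per library. The NK and NKT cell sum is higher in TEM YFP+ than in TEM YFP- libraries (4278 to 7040 against 1104 to 1280), and the regulatory T cell and dendritic cell sums are lower.

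In naïve cells the same question gave no call among the 7 genes, and 0.00642% of all genes tested (1 gene) were called by limma. At an unadjusted p of 0.05 or less 388 genes were higher and 130 lower, edgeR called 2 genes and DESeq2 12, none of them a receptor gene of this family. Il2rb was at 3900, 3141 and 3675 normalized counts in naïve YFP- and 2733, 2810 and 2345 in naïve YFP+ cells. These groups did not overlap either, but with YFP+ on the lower side and lower in 3 of 3 pairs. Groups without overlap were seen for 5.38% of genes, both directions together. The log2 difference was -0.44 (SE 0.16) and did not pass (limma adjusted p = 1). Beside this, limma called no gene of the marker lists in naïve cells without the replicate block. Cd8b1, of the CD8 T cell list, lay wholly below in naïve YFP+ cells, at 440.8 to 587.4 against 1083 to 1282 normalized counts. The study reports it as lower there. With the replicate block limma called Foxp3 lower in naïve YFP+ cells (-0.94, adjusted p = 0.0126, against 0.947 without the block). The regulatory T cell sum was 8187 to 10625 in naïve YFP- and 5925 to 7105 in naïve YFP+ libraries, and its part was not tested.

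Il7r was at 60070, 62434 and 59010 in naïve YFP- and at 69377, 69958 and 69046 in naïve YFP+ cells, again without overlap and higher in 3 of 3 pairs, by a log2 difference of 0.20 (SE 0.13, limma adjusted p = 1). The other 5 genes overlapped between the naïve fractions. Il2rg differed by 0.06, Il4ra by 0.10, Il21r by 0.02 and Il15ra by -0.01 on the log2 scale. Il9r differed by 0.58 (SE 0.45), at 18 to 97 reads per library. The highest naïve value of Il9r, 95.4 normalized counts, belonged to replicate 2 of naïve YFP+, the library with the high macrophage and neutrophil sum, and the part of those cells was not tested. Without that library the Il9r difference was smaller, 0.10.

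**Figure D3:**
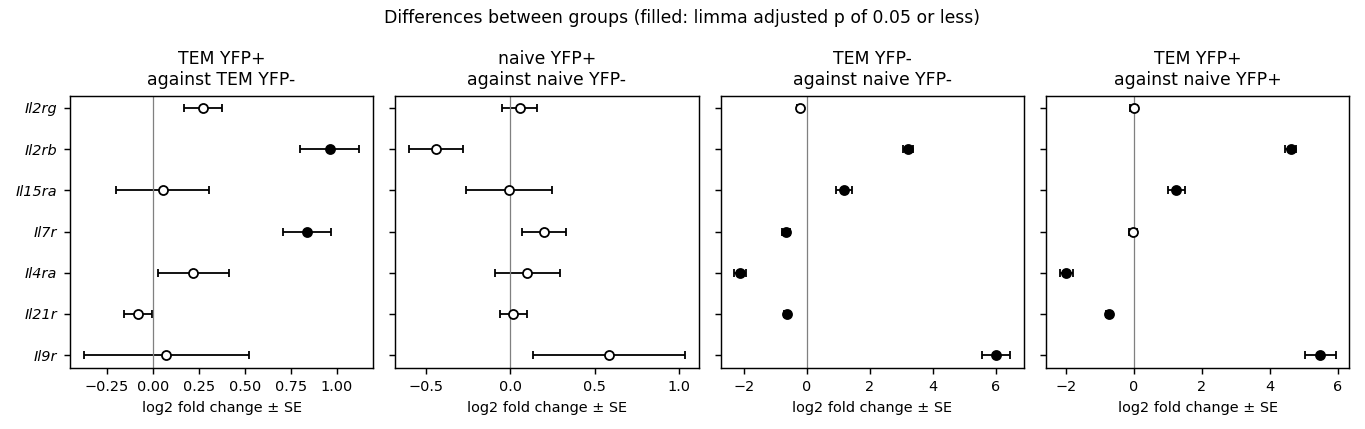
Log2 fold changes (horizontal axes, different ranges) of the 7 receptor genes in 4 comparisons, with whiskers of 1 SE from limma; filled points had an adjusted p of 0.05 or less. Filled points are Il2rb and Il7r in the TEM comparison by YFP, none in the naïve one, 6 in TEM YFP- against naïve YFP- and 5 in TEM YFP+ against naïve YFP+ cells.

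The effect of YFP status was then compared between TEM and naïve cells in the same fit. Il2rb was the member called, with an interaction of 1.40 on the log2 scale (SE 0.23, limma adjusted p = 0.00588), against a background of 3.55% of all genes called, 0.828% higher and 2.73% lower. With a size of 1 or more required as well, the background was 0.648% higher and 2.45% lower, and Il2rb was still called. TEM YFP+ cells lay above TEM YFP- cells by 0.96 while naïve YFP+ cells lay below naïve YFP- cells by 0.44, a difference that alone did not pass. Without any 1 library it was between 1.21 and 1.54 and kept its call. The interaction was also called higher for 3 of 8 NK and NKT cell markers and lower for 5 of 6 conventional and 6 of 7 plasmacytoid dendritic cell markers and for Adgre1 of the macrophage and neutrophil list, while Ccr9, the remaining plasmacytoid marker, was called higher. The part of these cells was not tested.

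Il7r had an interaction of 0.64 (SE 0.18) and did not pass (limma adjusted p = 0.0927). It passed with the replicate block (0.64, adjusted p = 0.0301), with edgeR (adjusted p = 0.0493), with DESeq2 (adjusted p = 0.00264), and after replicate 2 of TEM YFP+ was left out (0.77, adjusted p = 0.0309). The other 5 interactions were 0.22 for Il2rg, 0.12 for Il4ra, 0.06 for Il15ra, -0.10 for Il21r and -0.51 for Il9r, with adjusted p values of 0.745 or more.

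TEM cells were set against naïve cells within each YFP fraction, and these comparisons share their libraries with those above. Il2rb, Il9r and Il15ra were higher in TEM than in naïve cells in both fractions, and Il4ra and Il21r were lower in both. Il7r was lower in TEM YFP- than in naïve YFP- cells. Among all genes tested 49.8% were called in YFP- cells (29.9% higher, 19.9% lower) and 41.4% in YFP+ cells (24.7% higher, 16.7% lower), so that a call is common here. Groups without overlap were common too, at 59.01% of genes in YFP- and 48.71% in YFP+ cells, both directions together. With a log2 change of at least 1 in size required, 4 members were called in each fraction, Il2rb, Il9r, Il15ra and Il4ra, with 21.2% of all genes higher and 5.25% lower in YFP- and 16.3% higher and 5.01% lower in YFP+ cells. Of the called genes 60% and 59.6% were higher in TEM, which became 37.7% and 39.8% after quantile normalization. That scaling moved the median log2 difference of all genes from 0.05 to -0.20 in YFP- cells and from 0.03 to -0.14 in YFP+ cells.

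Markers of other cells were also called between TEM and naïve cells, beside 29.9% (YFP-) and 24.7% (YFP+) of all genes tested called higher. All 7 regulatory T cell markers were higher in TEM cells of both fractions, with the sums given above. Of the NK and NKT cell list 5 of 8 were higher in YFP- and 7 of 8 in YFP+ cells (naïve sums below those of TEM), of the conventional dendritic cell list 6 and 5 of 6, of the plasmacytoid list 7 and 5 of 7 (naïve sums 2189 to 2568), and of the macrophage and neutrophil list 3 and 1 of 6. The part of these cells in the values that follow was not tested.

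Il2rb had a log2 difference of 3.22 (SE 0.16, limma adjusted p = 1.53e-08) in YFP- and 4.62 (adjusted p = 1.62e-09) in YFP+ cells, or 9.32 and 24.6 times the naïve level. No TEM library came near a naïve one, since the lowest TEM value was 28515 and the highest naïve value 3900. Il9r, whose product binds IL-9, a cytokine of mast cell and mucosal responses, was at 20.7, 54.1 and 28.8 in naïve YFP- and 40.8, 95.4 and 28.8 in naïve YFP+ cells. In TEM YFP- cells it was at 2302, 1392 and 2944, and in TEM YFP+ cells at 2128, 1683 and 3072. Replicate 2 was the lowest of its group in both TEM fractions and the highest in both naïve ones. The log2 differences were 6.00 (SE 0.45, limma adjusted p = 4.06e-07) and 5.49 (adjusted p = 1.17e-06), the widest of the family.

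Il15ra presents IL-15 to neighbouring cells and raises the affinity for it. It was at 117.5 to 233.2 normalized counts in naïve and 376.9 to 509.5 in TEM libraries. The groups did not overlap in either fraction, as in 59.01% (YFP-) and 48.71% (YFP+) of all genes tested. The log2 differences were 1.19 (SE 0.25, limma adjusted p = 0.00183) and 1.25 (adjusted p = 0.00167). After quantile normalization the first was 0.44 and did not pass (adjusted p = 0.0778).

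Il4ra, the chain of the IL-4 and IL-13 receptors, fell furthest. Naïve YFP- cells had 26888, 23077 and 21869 normalized counts and naïve YFP+ cells 29445, 24341 and 23276, against 4688 to 8912 in the TEM libraries. The log2 differences were -2.11 (SE 0.19, limma adjusted p = 1.98e-06) and -1.99 (adjusted p = 4.74e-06), which put the naïve level at 4.31 and 3.96 times the TEM level. Its neighbour Il21r, the chain for IL-21, was at 15005 to 16406 in naïve and 9120 to 10981 in TEM libraries, and fell by 0.64 (SE 0.08, limma adjusted p = 2.39e-05) and 0.74 (adjusted p = 1.06e-05) on the log2 scale. Neither gene overlapped between TEM and naïve libraries in either fraction, as in 59.01% (YFP-) and 48.71% (YFP+) of all genes tested.

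For Il7r the fractions gave different pictures. TEM YFP- cells lay wholly below naïve YFP- cells, by a log2 difference of -0.66 (SE 0.13, limma adjusted p = 0.00105). Of all genes tested 59.01% were without overlap there, both directions together. TEM YFP+ cells overlapped with naïve YFP+ cells (-0.02, SE 0.13, adjusted p = 0.915), and after quantile normalization they were higher by 0.43 (adjusted p = 0.00532). The difference between these contrasts is the interaction given above. Il2rg was lower by -0.22 (SE 0.10, adjusted p = 0.1) in TEM YFP- than in naïve YFP- cells. That difference passed with the replicate block (adjusted p = 0.0256), with TMM factors, edgeR or DESeq2, and was 0.01, on the other side of zero, after quantile normalization. In YFP+ cells it was -0.0026 (SE 0.10, adjusted p = 0.986), and 0.21 after quantile normalization (adjusted p = 0.0314).

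Levels of different chains were compared as normalized counts per kilobase of merged exon length. In naïve YFP- cells Il7r (12975 ± 376.0, SD, n = 3) and Il2rg (12102 ± 966.7) led with overlapping ranges, followed in order and without overlap by Il21r (4758 ± 218.1), Il4ra (3989 ± 436.5), Il2rb (833.2 ± 90.9), Il15ra (41.8 ± 8.77) and Il9r (6.98 ± 3.52). The order of means was the same in naïve YFP+ cells, where Il7r (14896 ± 99.1) lay clear of Il2rg (12588 ± 1247) and Il21r (4811 ± 95.5) overlapped with Il4ra (4280 ± 549.4). Il2rb was at 613.3 ± 58.2, Il15ra at 42.8 ± 14.2 and Il9r at 11.1 ± 7.18 in those cells.

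In TEM YFP- cells Il2rg (10362 ± 116.0 per kilobase) led, Il7r (8230 ± 828.0) and Il2rb (7780 ± 1040) overlapped, and Il21r (3053 ± 217.0), Il4ra (926.4 ± 111.4), Il9r (447.3 ± 157.7) and Il15ra (94.5 ± 8.45) followed without overlap. In TEM YFP+ cells Il2rb (15356 ± 3819), Il7r (14805 ± 2287) and Il2rg (12557 ± 1095) had the highest means and each overlapped with the next, and Il21r (2886 ± 155.6), Il4ra (1111 ± 353.9), Il9r (463.8 ± 143.4) and Il15ra (98.5 ± 14.3) lay below in that order without overlap. Il2rb thus went from the fifth place in naïve to a joint first place in TEM YFP+ cells, and Il9r passed Il15ra. Of 13436 genes with a length, 19.4% had a higher mean per kilobase than Il2rb in naïve YFP- cells, 25.9% in naïve YFP+, 1.45% in TEM YFP- and 0.610% in TEM YFP+ cells.

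Expressed as a share of the summed level per kilobase of the 7 genes, Il2rb took 2.40 ± 0.23% in naïve YFP-, 1.65 ± 0.17% in naïve YFP+, 25.1 ± 2.35% in TEM YFP- and 32.2 ± 3.33% in TEM YFP+ cells (SD, n = 3 in each). Il4ra took 11.5 ± 1.25%, 11.5 ± 1.04%, 3.00 ± 0.39% and 2.31 ± 0.38%. The share of Il21r went from 13.7 and 12.9% in the naïve fractions to 9.92 and 6.19% in the TEM fractions. Il2rg kept between 26.8 and 34.8% and Il7r between 26.6 and 40.1%. With coding length in place of exon length, Il7r led in all 4 groups.

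**Figure D4:**
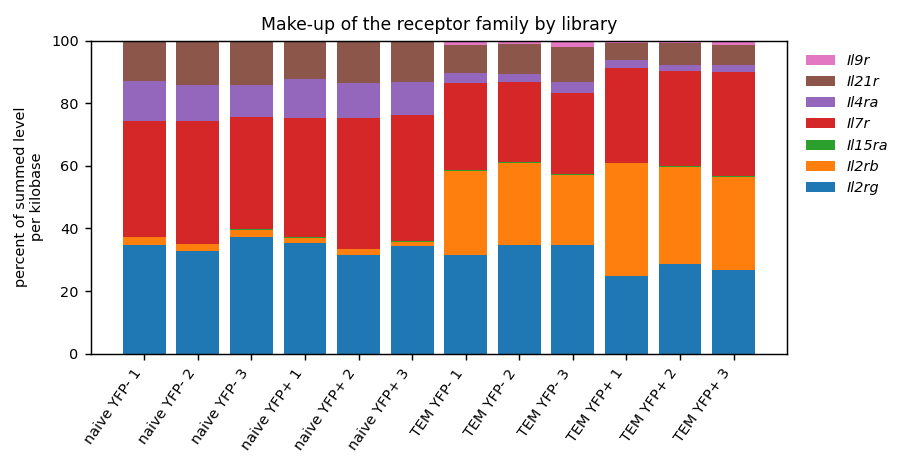
Percent of the summed level per kilobase of exon (vertical axis) that each of the 7 receptor genes takes in each of the 12 libraries (stacked bars, each reaching 100). Il2rb is a thin band of 1.49 to 2.61% in the naïve libraries and takes 22.4 to 36.0% in the TEM libraries, while Il4ra and Il21r shrink.

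For each receptor gene the 3 genes with the most similar pattern were taken by Pearson's r of log2 values over the 12 libraries, out of 11105 genes whose mean was 50 or more. Genes that differ between TEM and naïve cells reach high coefficients with one another for that reason alone, and r is a description. Il2rb was closest to Il12rb1, a chain of the IL-12 and IL-23 receptors (r = 0.99), Socs2 (0.99) and Kcnq5 (0.99). Il12rb1 had group means of 226.5, 177.9, 2700 and 4297 normalized counts in naïve YFP-, naïve YFP+, TEM YFP- and TEM YFP+ cells. Il7r was closest to Dse (r = 0.97), Itgb3, the integrin beta 3 chain (0.97), and Myo6 (0.93), and Itgb3 had means of 9200, 10997, 3542 and 9774 in the same order.

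Il2rg was closest to Tspyl3 (r = 0.95), Shisa5 (0.94) and Srp68 (0.94). Il4ra was closest to Igfbp4 (1.00), Myo10 (1.00) and Sorcs2 (0.99), all of them far lower in TEM than in naïve cells. Il21r was closest to Sox4 (0.99), Rgmb (0.99) and Smchd1 (0.99). Il9r was closest to Ccr6, a chemokine receptor (1.00), Asb2 (1.00) and Gpr55 (1.00), and Il15ra to Mapk12 (0.99), Atp6v1g2 (0.98) and C2cd4b (0.98).

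Of 6 ligand genes 5 were in the table, Il2, Il4, Il7, Il15 and Il21, and none was called between YFP fractions in TEM or naïve cells by limma. All 5 were higher in TEM than in naïve cells in both fractions, beside 29.9% (YFP-) and 24.7% (YFP+) of all genes tested. Il4 was at 30.4, 60.0 and 34.6 normalized counts in TEM YFP- and 78.9, 139.8 and 154.0 in TEM YFP+ cells, without overlap, a log2 difference of 1.56 (SE 0.58) that did not pass (limma adjusted p = 0.16). DESeq2 called it (adjusted p = 0.0319) and edgeR did not (adjusted p = 0.165). In naïve cells Il4 had at most 3 reads in any library, and in naïve YFP- none at all, so that it was at least 12.4-fold higher in TEM YFP- than in naïve YFP- cells, taking 3 reads per library as the floor. Il2 was at 118.3 to 263.3 in TEM and at most 7.42 in naïve libraries, and Il7 at 13.1 to 41.8 and at most 1.15. Il21 ranged from 540.9 to 5965 in TEM libraries and was highest in replicate 2 of both fractions, with at most 13.8 in naïve ones.

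Partner chains outside the 7 were represented by Il2ra, Crlf2 and Il13ra1. All 3 were higher in TEM than in naïve cells in both fractions, beside 29.9% (YFP-) and 24.7% (YFP+) of all genes tested. Il2ra, which raises the affinity for IL-2, was at 1358, 1198 and 1852 normalized counts in naïve YFP- and 655.4, 559.8 and 897.6 in naïve YFP+ cells. It was at 5038, 3824 and 6136 in TEM YFP- and 9016, 5136 and 9195 in TEM YFP+ cells. The YFP+ value was the lower of the pair in each naïve pair and the higher in each TEM pair. The log2 differences, 0.62 in TEM (SE 0.26, limma adjusted p = 0.225) and -1.06 in naïve cells (SE 0.26, adjusted p = 0.947), did not pass, and both passed with the replicate block (adjusted p = 0.00293 and 0.00554). Foxp3, of the regulatory T cell list, was lower in YFP+ cells with the block in both TEM (-0.87, adjusted p = 0.000523) and naïve cells, and its part was not tested.

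The interaction of Il2ra was called, at 1.68 (SE 0.36, limma adjusted p = 0.0234), but the adjusted p was between 0.0573 and 0.0656 when any 1 of replicate 3 of naïve YFP-, replicates 1 and 2 of TEM YFP-, or replicates 1 and 3 of TEM YFP+ was left out. Without replicate 2 of TEM YFP+ the TEM difference passed (adjusted p = 0.0455). Il13ra1, a chain that pairs with the product of Il4ra, was lower in TEM YFP+ than in TEM YFP- cells by -2.46 (SE 0.59, limma adjusted p = 0.0237), at 134.0 to 249.6 against 781.8 to 1398 normalized counts. It lost that call without replicate 1, 2 or 3 of TEM YFP- or replicate 1 or 3 of TEM YFP+ (adjusted p 0.0547 to 0.129). The conventional dendritic cell sums given above were also lower in TEM YFP+ than in TEM YFP- cells, and their part was not tested.

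Downstream of the receptors, none of 16 signalling genes (the JAKs, STATs and adaptors) was called between YFP fractions by limma in TEM or naïve cells. The replicate block added 4 calls in TEM cells, where it also raised the number called among all genes tested (counts in the closing section). With the block Jak1 (0.30, adjusted p = 0.0379) and Pik3r1 (0.80, adjusted p = 0.00168) were higher. Ptpn6 (-0.42, adjusted p = 0.00777) and Irs2 (-0.99, adjusted p = 0.0128) of the signalling genes were lower. Between TEM and naïve cells 2 were higher and 8 lower in YFP- and 2 higher and 6 lower in YFP+ cells. Of all genes tested 49.8% and 41.4% were called in these 2 comparisons. The number called was 7 to 11 and 5 to 8 when any 1 library was left out. Jak1, the kinase bound by the private chains, was lower by -0.82 (SE 0.15, limma adjusted p = 6.72e-04) and -0.56 (adjusted p = 0.0109). Stat5b was lower by -0.40 (SE 0.09, adjusted p = 0.0028) and -0.38 (adjusted p = 0.00539).

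Of 14 genes known as feedback or target genes of STATs, Bcl2, Socs1 and Socs2 were higher in TEM YFP+ than in TEM YFP- cells and none was lower. Of all genes tested 2.3% were higher and 4.67% lower there. Bcl2, which protects cells from apoptosis, was at 4797, 5139 and 4473 normalized counts in TEM YFP- and 9779, 10283 and 12290 in TEM YFP+ cells. All TEM YFP+ libraries were far above the TEM YFP- range. The log2 difference was 1.16 (SE 0.10, limma adjusted p = 9.57e-05), and the interaction with cell type was 0.80 (SE 0.15, adjusted p = 0.0109).

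Socs2, which dampens cytokine signals, was at 908.0, 904.8 and 840.4 in TEM YFP- and at 1879, 1544 and 2160 in TEM YFP+ cells. The log2 difference was 1.06 (SE 0.22, limma adjusted p = 0.00937), with an interaction of 1.69 (SE 0.31, adjusted p = 0.0104). The TEM call was lost without replicate 3 of TEM YFP- or of TEM YFP+ (adjusted p 0.053 and 0.0592). Socs1 differed by 0.51 (SE 0.13, limma adjusted p = 0.0306) and lost its call without replicate 1 or 3 of TEM YFP- or replicate 1 or 2 of TEM YFP+ (adjusted p 0.09 to 0.137). Cish, another STAT5 target, differed by 0.24 (SE 0.16, adjusted p = 0.53) with overlapping groups. Between TEM and naïve cells 4 of the 14 were higher and 7 lower in YFP- and 5 higher and 7 lower in YFP+ cells. Cish and Socs2 were among the higher and Bcl2 among the lower genes in both. Of all genes tested 49.8% (YFP-) and 41.4% (YFP+) were called in these comparisons.

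Regulators known to act on receptor chain genes were a list of 13. Between the TEM fractions 6.97% of all genes tested were called, 2.3% higher and 4.67% lower. Of the 13 regulators Tbx21, the T-bet gene, was called higher in TEM YFP+ than in TEM YFP- cells, at 3890, 3418 and 4363 against 2357, 2692 and 2207 normalized counts (log2 difference 0.68, SE 0.19, limma adjusted p = 0.0477). The groups were separate, yet the call was lost without replicate 2 of naïve YFP- or without any 1 of the 6 TEM libraries (adjusted p 0.0538 to 0.217). With the replicate block 5 of the 13 were called in TEM cells, 4 higher and 1 lower. More of all genes tested were called with the block too, as counted in the closing section. Between TEM and naïve cells Tbx21, Eomes, Prdm1 and Gfi1 were higher and Foxo1, Klf2, Ets1, Tcf7 and Lef1 lower in both fractions. Of all genes tested 49.8% (YFP-) and 41.4% (YFP+) were called there. Foxo1, a factor that drives Il7r in naïve T cells, was lower in TEM cells by -1.22 (SE 0.15, limma adjusted p = 3.08e-05) in YFP- and -1.12 (adjusted p = 9.08e-05) in YFP+ cells, and it differed by 0.18 (SE 0.15, adjusted p = 0.691) between the TEM fractions.

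**Figure D5:**
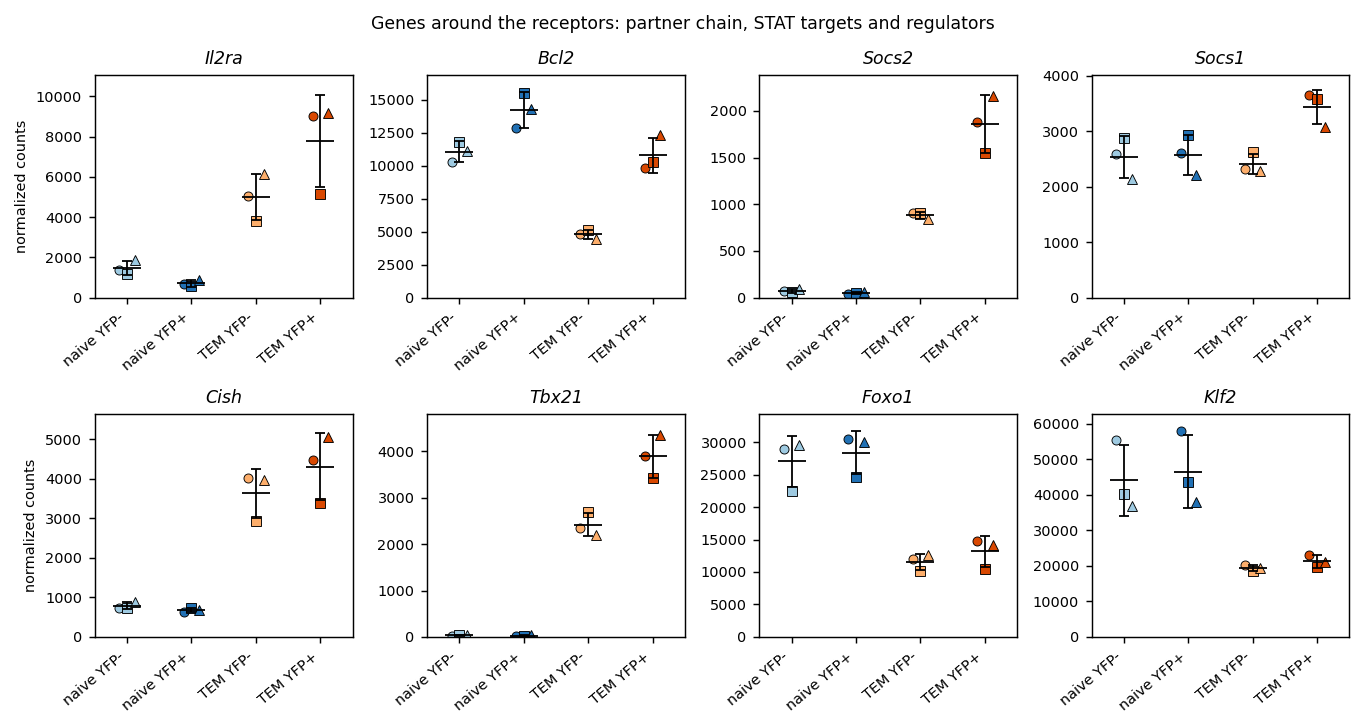
Normalized counts (vertical axes, linear and starting at 0) of 8 genes around the receptors, chosen after their values were seen, in the 4 groups; symbols mark replicates 1 to 3 and the bar with whiskers is the mean ± SD. Bcl2 and Socs2 in TEM YFP+ lie wholly above TEM YFP-, Il2ra and Cish overlap there, and Foxo1 and Klf2 are lower in TEM than in naïve cells.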

How the data were processed

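Per the labels and the study's methods, stranded total RNA libraries were made from sorted cells, DRAGEN aligned the reads to mm10 and Rsubread counted them on genes. The authors divided each library's gene counts by its DESeq2 size factor, and this signal of normalized counts is what was deposited. The annotation, the strand setting and the versions are not given in the sources used here. All values (100%, within 0.001) were whole reads once multiplied by the size factor. RefSeq named 16749 genes.

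From these values, limma 3.58.1 (R 4.3.3) with a variance trend fitted 4 group means to log2(value + 1) for genes at 5 or more in 3 or more libraries, on 8 residual degrees of freedom; the fit was tested on simulated data. Exon and coding lengths came from GENCODE M21. The sorts used 3 mice, but no label ties a library to a mouse, so p values measure the spread between these libraries. The genes named are the 7 members, the 3 genes most like each (predicted-gene names left out), genes of pathway lists that were called, and a few others (Cish and Il2ra in comparisons where they were not called, Jak1, Pik3r1, Ptpn6 and Irs2 under the block, Il4, Foxo1, and genes of the cell type marker lists) chosen after their values were seen. Members and lists were chosen with earlier results of these data known. Same-numbered libraries deviated together, at r = 0.18 to 0.36 (TEM fractions), 0.31 to 0.49 (naïve fractions) and 0.14 to 0.23 (YFP- across cell types). Across cell types in YFP+ r was -0.02 to 0.20. The main fit nevertheless held no block for the replicate number. An alternative fit held that block in every comparison, also in the last. edgeR 4.0.16 and DESeq2 1.42.0 on the recovered reads, other scalings, filters and pseudocounts were alternatives. A single other gene is not reported here.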

Additional observations from a re-analysis of the deposited data

Results flagged for a closer look

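The effect of YFP status on Il2rb differed between TEM and naïve cells by 1.40 on the log2 scale in a test of the difference itself (SE 0.23, n = 3 per group, limma adjusted p = 0.00588). It was 0.96 in TEM cells and -0.44 in naïve cells, with YFP+ higher in 3 of 3 TEM pairs and in 0 of 3 naïve pairs. These pairs share a replicate number, which no label ties to a mouse.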

How the results depend on the processing

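Over 903 recomputed fold changes of the 7 genes, 848 kept their direction and their side of the threshold, 15 lost a call, 13 gained one and 27 changed sign. Called members in TEM by YFP became 0 at an absolute log2 fold change of 1 or of 2 or more. At 2 or more, 3 remained called between the TEM and naïve YFP- groups, 2 between the YFP+ groups and 0 in the interaction. In the interaction 2 were called with quantile normalization, the replicate block, edgeR, DESeq2 and DESeq2 with the block, and 1 to 2 without any 1 library. Beyond these and the blocked values given with the results, the block changed no call of a member. Quantile normalization turned Il2rg between TEM and naïve to 0.0121 (YFP-) and 0.2083 (YFP+, adjusted p = 0.0314) and Il7r to 0.43 (YFP+). Il15ra between naïve fractions became 0.031 with edgeR, 0.0354 with DESeq2 and 0.0224 with the block added to it. Leaving out 1 library gave -0.23 to 0.31 for Il9r, -0.0609 to 0.1348 for Il15ra and -0.0132 to 0.4502 for Il4ra in TEM by YFP. In naïve by YFP it gave -0.0204 to 0.044 for Il21r, -0.0142 to 0.1293 for Il2rg, -0.19 to 0.30 for Il15ra and -0.003 to 0.19 for Il4ra. Between TEM and naïve YFP+ cells it gave -0.0767 to 0.0668 for Il2rg and -0.11 to 0.11 for Il7r, and in the interaction -0.25 to 0.24 for Il15ra and -0.11 to 0.35 for Il4ra. None of these was called in the fits without 1 library, and the cause was not tested.

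Of all genes, 1087 were called in TEM by YFP, 1869 with the block, 2416 with DESeq2 and the block, 543 at 2 or more, 696 without replicate 1 and 574 without replicate 3 of TEM YFP-. On the recovered reads edgeR called 1126 there, 7810 and 6321 between TEM and naïve cells and 480 in the interaction. The naïve count went from 1 to between 0 and 61. The interaction count of 554 became 890 with the block, 836 with DESeq2, 1237 with DESeq2 and the block, and 316, 267 and 368 without replicates 1 and 3 of TEM YFP- and replicate 1 of TEM YFP+. Between TEM and naïve cells 7769 and 6453 became 4120 and 3319 at 1 or more and 2750 and 2020 at 2 or more. Of the called genes 33% were higher in TEM by YFP, 46% after quantile normalization, and 23.3% and 32.7% in the interaction. Shares by coding length, an alternative chosen after seeing the data, moved beyond 1 SD in 16 of 28 cases. The RefSeq protein length was not run. Depth is lowest for Il9r in naïve cells, at 18 to 97 reads.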
